A study of Mus musculus with 32 samples.

Results

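The genes described here mark muscle satellite cells or drive the fusion of myoblasts, and their mRNA was followed in the gastrocnemius (GAS) muscle of mice after the sciatic nerve was cut. They are the 10 genes Pax7, Calcr, Cdh15, Sdc4, Megf10, Heyl, Chodl, Vcam1, Mymk and Mymx, taken by symbol from a table of 33397 genes. Levels are in FPKM, which counts fragments relative to the length of the exons and to the size of the library. All 10 genes passed the filter on low values (0.1 FPKM or more in 4 samples or more), as did 22071 genes in all.

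Satellite cells are the stem cells of skeletal muscle and lie between a fibre and its basement membrane. At rest they express the transcription factor Pax7 and surface proteins that hold them in place. When activated they divide, switch on the myogenic factors Myod1 and Myog and become myoblasts, which then fuse with fibres or with each other. The membrane proteins myomaker (Mymk) and myomixer (Mymx) are the fusion machinery proper, and a resting adult muscle makes little of either.

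RNA was sequenced from GAS muscles of C57BL/6 mice at 0, 1, 3, 5, 7, 14, 21 and 28 d post denervation, with 4 samples at each time point and 32 in all. In the study, a piece of the left sciatic nerve was removed from male C57BL/6J mice aged 6 to 8 weeks. No genetic change or drug distinguished the groups. The labels list sciatic nerve transection for every sample, 0 d included, while the columns of the 0 d samples are named as controls. The study describes the muscle it compared with as sham, operated on without cutting the nerve, so 0 d may differ from the other groups in the cut itself as well as in time. Samples are numbered 1 to 4 within a time point in the order of their columns, as names only, and p-values measure the spread between these samples, since the labels do not tie them to animals, although the study's text describes its samples as biologically independent.

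Depth recovered from the FPKM values was similar across samples, at 14199901 to 17561588 fragments. Muscle fibre genes led the libraries, with Acta1, skeletal muscle actin, at a mean of 13883 FPKM at 0 d. The labels' extraction text speaks of retinas, but 5 retina genes summed to 0.035 to 0.266 FPKM per sample. Sample 1 of 3 d stood apart from its group. On the first principal component, which held 44.7% of the variance, it lay at -19.4 and the other 3 d samples lay at 0.8 to 6.2, and the main results at 3 d are therefore also given without it. Mitochondrial genes took 6.7% to 18.2% of the fragments, the largest shares being at 0 d, and the median of 11943 well expressed genes lay 0.12 to 0.32 above 0 d on the log2 scale at the later time points. Scaling the samples by median ratios instead brought this median to between -0.05 and 0.03, and the places where that changed a call on a member are given with each gene.

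Mymx is the smallest of the 10 genes, and its coding sequence is shown because a transcript this short gathers few fragments even when it is abundant. It lies on chromosome 17 at 45601417 to 45601671 (GRCm38, minus strand, GENCODE M21), within 1 exon, and is shared by 3 of the 4 annotated transcripts. It holds 84 codons before the stop codon, 255 bases in all, and the start and stop codons are in capitals.
Mymx coding sequence: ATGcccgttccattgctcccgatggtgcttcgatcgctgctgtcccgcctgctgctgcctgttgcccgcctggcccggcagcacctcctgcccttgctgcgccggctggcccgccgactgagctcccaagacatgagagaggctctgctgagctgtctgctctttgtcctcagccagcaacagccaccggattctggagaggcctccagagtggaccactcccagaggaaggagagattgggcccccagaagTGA

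The promoters of Chodl and Sdc4 are shown because, of the promoter windows available, only theirs overlap no annotated exon. The motif CANNTG, the E-box bound by Myod1, Myog and many other factors of their class, is in capitals and reads the same on both strands. RefSeq promoter windows of 250 bases before the start (GRCm38.p6) existed for 5 of the 10 genes, and the windows not shown overlap annotated exons. The Chodl window, chr16:78930698-78930947 on the plus strand, holds 4 such motifs, whose first bases lie 222, 198, 107 and 98 bases before the start. The Sdc4 window, chr2:164443189-164443438 on the minus strand, holds 0, and it lies inside the longer gene span that GENCODE gives to Sdc4. Of 32851 windows of the same length, 66.2% hold at least 1 such motif, 3.84% hold at least 4 and 33.8% hold none. A match describes the letters alone and is no evidence of binding.
Chodl promoter: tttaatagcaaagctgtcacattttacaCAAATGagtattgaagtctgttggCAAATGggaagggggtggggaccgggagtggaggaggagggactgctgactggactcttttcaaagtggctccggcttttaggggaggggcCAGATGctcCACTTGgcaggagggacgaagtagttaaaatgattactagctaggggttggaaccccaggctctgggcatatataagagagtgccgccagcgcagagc
Sdc4 promoter: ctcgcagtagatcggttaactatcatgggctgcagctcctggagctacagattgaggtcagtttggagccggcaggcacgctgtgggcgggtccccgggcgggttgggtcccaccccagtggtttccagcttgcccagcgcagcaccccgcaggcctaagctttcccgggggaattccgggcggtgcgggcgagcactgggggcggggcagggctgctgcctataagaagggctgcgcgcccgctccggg

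The first question was how many of the 10 genes differed from 0 d at each time point. Differences were taken on log2(FPKM + 1), which understates changes of genes with low FPKM, and tested with limma at a Benjamini-Hochberg adjusted p under 0.05 over all genes tested. The 7 comparisons share the 0 d samples and are not independent of each other. At 1 d, 2 genes rose (Cdh15 and Sdc4) and 1 fell (Calcr), against 20.4% of all genes tested that were called higher and 9.01% that were called lower. At 3 d, 5 rose and 2 fell, against 29.0% and 14.3% of all genes. The same numbers, 5 and 2, were called at 3 d without sample 1.

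From 5 d on, the higher calls outnumbered the lower calls at each time point, as they did over all genes. At 5 d, 4 genes rose and 2 fell, where 36.1% of all genes were called higher and 9.52% lower. At 7 d, 5 rose and 2 fell, with 37.1% and 10.1% of all genes. At 14 d, 6 rose and 1 fell, with 38.0% and 9.25% of all genes. Heyl was the gene still lower at 14 d. At 21 d, 5 rose and 1 fell, with 31.7% and 10.1% of all genes. At 28 d, 7 rose and 0 fell, with 37.8% and 9.85% of all genes. Limma also gave 0 lower at an unadjusted p under 0.05, as did voom on recovered fragments, and the genes not called were Calcr, Cdh15 and Heyl. The median log2 difference of the 10 genes was -0.05, 0.48, 0.35, 0.41, 0.34, 0.22 and 0.33 at 1, 3, 5, 7, 14, 21 and 28 d, and that of all genes tested lay between 0.034 and 0.1452. Under median-ratio scaling the calls were 1 higher and 2 lower at 1 d (13.4% and 19.1% of all genes), 5 and 4 at 3 d (19.9% and 24.3%), 4 and 2 at 5 d (19.3% and 20.2%) and 5 and 2 at 7 d (20.5% and 20.3%). They were 4 and 2 at each of 14 d (20.2% and 19.0%), 21 d (19.3% and 19.2%) and 28 d (21.7% and 19.2%).

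**Figure D1:**
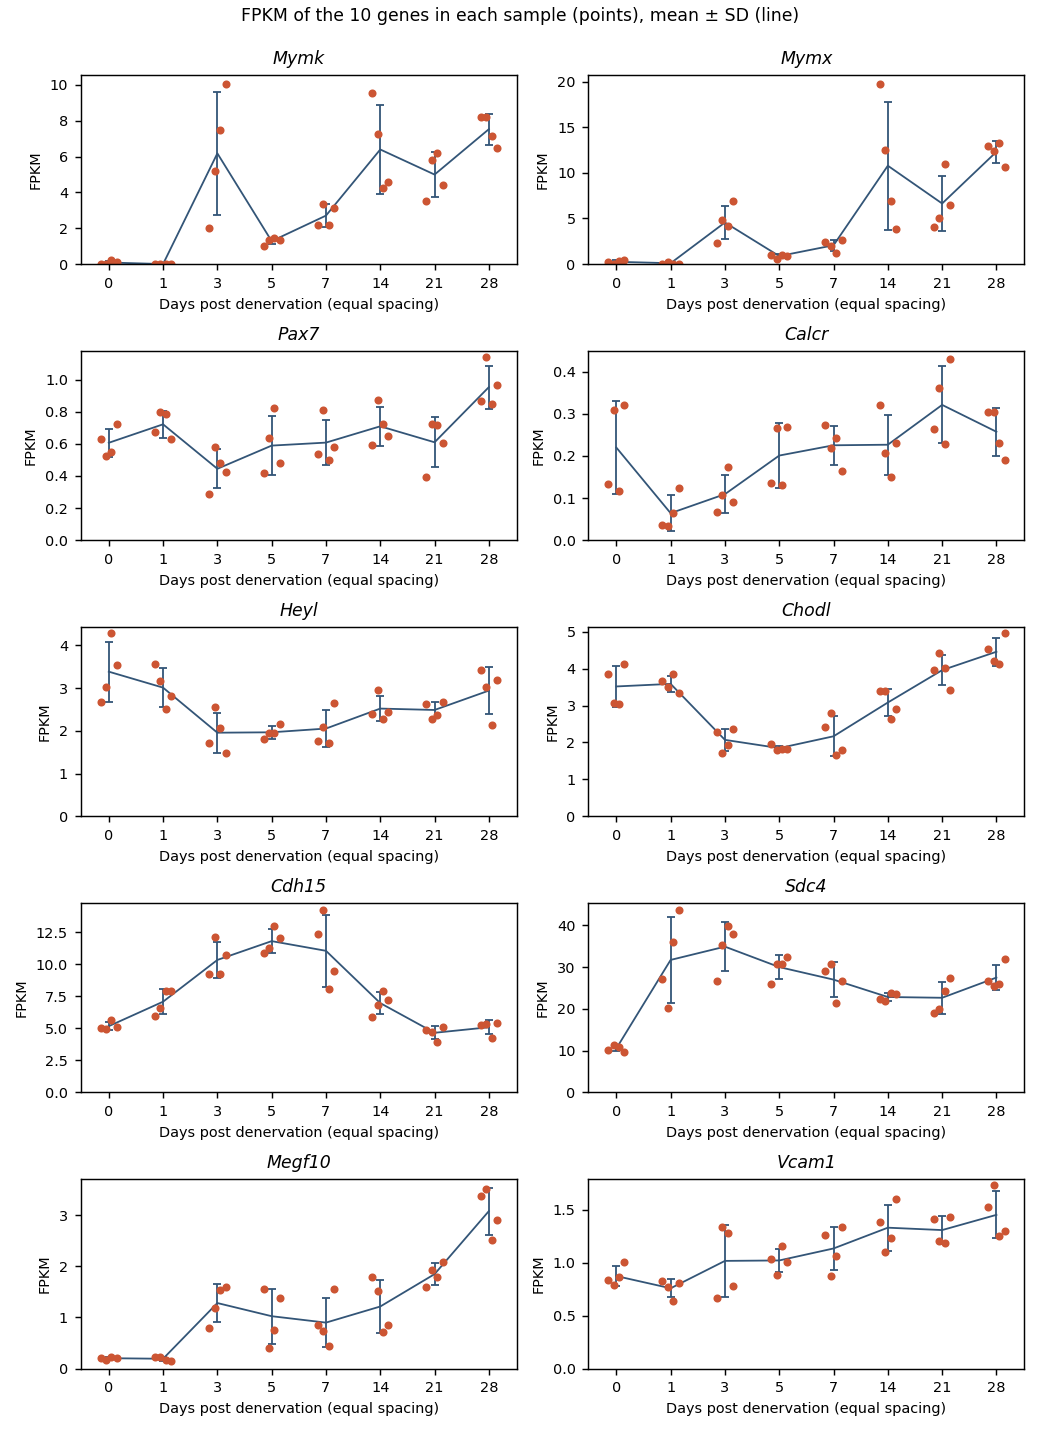
FPKM of each of the 10 genes (y axes, each from 0) at 0 to 28 d post denervation (x axes, time points at equal spacing), with a point per sample and the mean ± SD of 4 samples as a line. Mymk and Mymx lie near 0 at 0 and 1 d, reach means of 6.18 and 4.56 at 3 d, drop at 5 d and are highest at 28 d, while Heyl and Chodl dip from 3 d to 7 d.

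Mymk, the fusion protein of the myoblast membrane (chromosome 2, 27061636 to 27072179, minus strand, GRCm38 as for all positions), was at or near 0 until 1 d and was readily detected from 3 d on. At 0 d its FPKM was 0, 0, 0.217 and 0.125 in the 4 samples, which corresponds to 8 fragments in all. At 1 d it was listed at 0 in each of the 4 samples. A count of 0 among 62212283 fragments allows a level of up to 0.0319 FPKM over the group, taking 3 fragments as the limit, which is below the 0 d mean of 0.0855. The ratio of fragments had a 95% interval of 0 to 0.579 (counting error only), but the samples of 0 d differed among themselves, and the log2 difference of -0.11 ± 0.25 (SE) was not called (limma adjusted p = 0.819).

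At 3 d the 4 samples held 1.99, 5.18, 7.48 and 10.1 FPKM of Mymk. All 4 lay above every 0 d sample, although the lowest, sample 1, and the highest were far from each other. The log2 difference from 0 d was 2.58 ± 0.25 (SE, limma adjusted p = 9.64e-10), and 2.95 (adjusted p = 8.47e-13) without sample 1. In fragments, 618 at 3 d against 8 at 0 d gave a ratio of 72.8 per total (95% interval 36.7 to 169, exact binomial, counting error only). The 8 fragments came from samples 3 and 4 of 0 d, and the ratio ranged from 54.6 to 146 when each 0 d sample was left out in turn, the highest being without sample 3. Pooled over the 4 samples of 3 d, Mymk was 197-fold above the limit of 3 fragments at 1 d. This describes the group and not each sample, since sample 1 held only 46 of the 618 fragments, and it leaves out counting error at 3 d.

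The rise did not persist at its full height. At 5 d the samples held 1.02, 1.34, 1.44 and 1.32 FPKM, all below every 3 d sample, and Mymk fell by 1.5 on the log2 scale from 3 d to 5 d (limma adjusted p = 4.02e-05), with a difference of -1.88 without sample 1 of 3 d (adjusted p = 6.74e-08). At 7 d they held 2.17, 3.33, 2.17 and 3.15 FPKM. These lay above all 5 d samples, but the step of 0.69 was not called (adjusted p = 0.193), except in a fit of those 8 samples alone (adjusted p = 0.0412). At 14 d the values were 9.53, 7.24, 4.24 and 4.58 FPKM.

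That second increase, 0.95 ± 0.25 (SE) from 7 d to 14 d, passed the test narrowly (limma adjusted p = 0.0351). It was lost without sample 1 or sample 3 of 7 d (adjusted p = 0.098 and 0.0974) and without sample 1 or sample 2 of 14 d (adjusted p = 0.151 and 0.11), and with a pseudocount of 0.1, in TPM or with voom (adjusted p = 0.0957, 0.054 and 0.0664). It was also lost with no filter and in a fit of the 8 samples of 7 d and 14 d alone (adjusted p = 0.0568 and 0.107). At 21 d Mymk stood at 3.54, 5.83, 6.22 and 4.41 FPKM, and at 28 d at 8.24, 8.23, 7.16 and 6.49 FPKM. All 28 d samples lay above all 21 d samples, but this step was not called (adjusted p = 0.533). Against 0 d, the log2 difference at 28 d was 2.97 ± 0.25 (SE, adjusted p = 6.81e-11), or 87.3-fold in fragments (interval 44.1 to 203), and 65.4-fold to 175-fold with each 0 d sample left out, the highest again without sample 3. The higher calls for Mymk at 3, 5, 7, 14, 21 and 28 d held under median-ratio scaling.

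Mymx, the micropeptide that acts with Mymk in the same fusion step, followed a like course. At 0 d it was at 0.253, 0, 0.319 and 0.429 FPKM, 16 fragments in all, and at 1 d at 0, 0.253, 0.0604 and 0.059 FPKM. The groups overlapped and the difference was not called (log2 difference -0.19 ± 0.30 SE, limma adjusted p = 0.73), with 6 fragments at 1 d and a ratio of fragments of 0.371 (95% interval 0.119 to 0.997, counting error only). At 3 d Mymx reached 2.35, 4.83, 4.19 and 6.87 FPKM, again lowest in sample 1, and every sample lay above 0 d. The difference was 2.1 ± 0.30 (SE, adjusted p = 9.96e-07), and 2.32 (adjusted p = 3.72e-07) without sample 1.

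At 5 d Mymx was back at 1.04, 0.596, 1.01 and 0.855 FPKM, a fall of all samples below those of 3 d (-1.51 ± 0.30 SE, limma adjusted p = 0.000338, and -1.73 without sample 1 of 3 d, adjusted p = 0.000128). These values lay above all 0 d samples, but the difference of 0.59 ± 0.30 was not called (adjusted p = 0.112; two-sided exact permutation p = 0.0286, the smallest that 4 against 4 samples allow). It was called with a pseudocount of 0.1 (adjusted p = 0.00337) and after conversion to TPM (adjusted p = 0.00915), and in a fit of those 8 samples alone (adjusted p = 0.00205). In fragments the ratio of 5 d to 0 d was 3.46 (95% interval 1.97 to 6.44, counting error only).

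A second increase of Mymx came between 7 d and 14 d. The samples of 7 d held 2.38, 2.01, 1.22 and 2.63 FPKM, and those of 14 d held 19.8, 12.6, 6.92 and 3.87 FPKM. The spread at 14 d was the widest of any group of Mymx, with sample 1 highest and sample 4 lowest, yet all 4 lay above 7 d (1.76 ± 0.30 SE, limma adjusted p = 0.000608). This call was lost in a fit of those 8 samples alone (adjusted p = 0.088). At 21 d the values were 4.08, 5.04, 10.95 and 6.49 FPKM, and at 28 d they were 13.0, 12.4, 13.3 and 10.6 FPKM. Neither of these last steps was called (adjusted p = 0.503 and 0.285). The log2 difference from 0 d at 28 d was 3.42 ± 0.30 (SE, adjusted p = 1.46e-10), 48.5-fold in fragments (interval 29.7 to 85.2) and 36.7-fold to 64-fold with each 0 d sample left out.

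**Figure D2:**
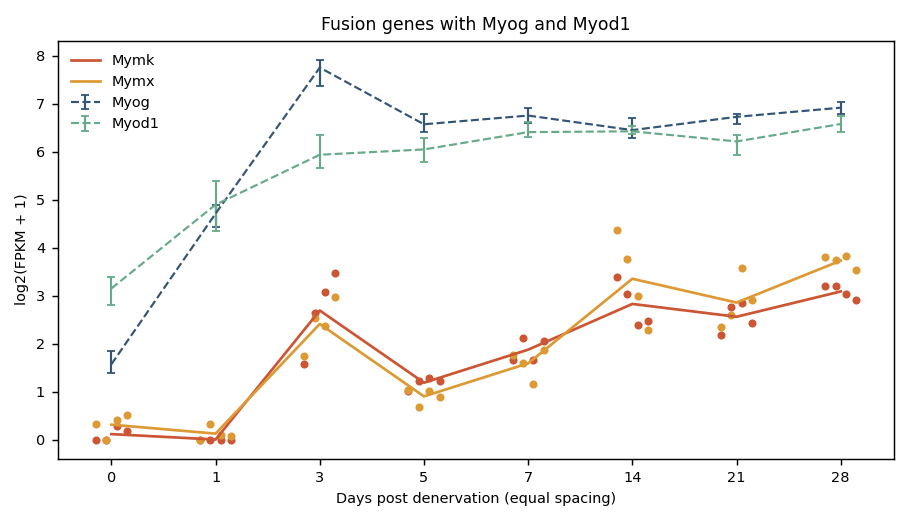
Mymk and Mymx (solid lines: mean of log2(FPKM + 1), points: samples) with Myog and Myod1 (dashed lines: log2 of the mean FPKM + 1, bars: lowest to highest of 4 samples) at 0 to 28 d, time points at equal spacing. Myog is highest at 3 d, where Mymk and Mymx have their first peak, and Myod1 has a mean of 60.3 FPKM at 3 d and of 65.2 to 94.6 FPKM later.

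Other genes of differentiation and fusion were read from a list of 25, of which 24 were in the table and 22 were tested. Myog, the factor that commits myoblasts to differentiate, rose from a mean of 1.97 ± 0.464 FPKM (SD, n = 4) at 0 d to 25.2 ± 3.62 at 1 d and 215 ± 34.5 at 3 d, and stood at 94.2 ± 10.8 at 5 d. Its log2 difference from 0 d was 3.15 at 1 d (limma adjusted p = 3.47e-17), a time point at which Mymk was listed at 0. Myod1, the factor of activated myoblasts, went from 7.88 ± 1.45 FPKM at 0 d to 28.8 ± 9.02 at 1 d and 94.6 ± 9.58 at 28 d, and was called higher at all 7 time points. Myf6, which mature fibres also express, peaked at 1103 ± 59.4 FPKM at 3 d (log2 difference 3.60, adjusted p = 5.04e-21, and 3.59 without sample 1). Whether fibres, myoblasts or other cells made the mRNA of Myog, Myod1, Mymk or Mymx cannot be read from whole muscle.

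The list as a whole did not move one way. Higher and lower calls numbered 4 and 4 at 1 d, 7 and 5 at 3 d, 6 and 1 at 5 d, 7 and 2 at 7 d, 8 and 2 at 14 d, 7 and 3 at 21 d, and 8 and 2 at 28 d, of the 22 tested. Without sample 1 of 3 d, 11 were higher and 4 lower at 3 d. The median difference was 0.05 to 0.24 with the deposited scaling and -0.14 to 0.02 with median ratios, so a direction of the list depended on the scaling. Over all genes, 20.4% to 38.0% were called higher and 9.01% to 14.3% lower with the deposited scaling. These shares also belong beside the counts of the lists below. The caveolin Cav3 fell by 0.69 at 1 d (limma adjusted p = 9.81e-06), and Jam2, an adhesion molecule of myoblasts and endothelium, fell by 0.59 at 3 d (adjusted p = 1.02e-08), or by 0.53 without sample 1 (adjusted p = 6.67e-08). Both falls held under median-ratio scaling.

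Pax7, the transcription factor that defines satellite cells (chromosome 4, 139737062 to 139833528, minus strand), was called against 0 d at 1 time point of 7. Its FPKM at 0 d ranged from 0.526 to 0.72, and the means at the other time points ranged from 0.444 at 3 d to 0.953 at 28 d. A sample held 26 to 112 fragments of it. From 1 d to 3 d Pax7 fell by 0.26 on the log2 scale with all 3 d samples below those of 1 d (limma adjusted p = 0.0206). This fall was lost without sample 1 of 3 d, the sample that stood apart and the lowest for Pax7 (-0.20, adjusted p = 0.0802), without sample 2 or sample 3 of 1 d (adjusted p = 0.0595 and 0.0555) and in a fit of those 8 samples alone (adjusted p = 0.0507).

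At 28 d all 4 samples, from 0.846 to 1.14 FPKM, lay above those of 0 d and of 21 d, and Pax7 was called higher than at 0 d (0.28 ± 0.08 SE, limma adjusted p = 0.00698). Under median-ratio scaling that difference was 0.13 and not called (adjusted p = 0.196), and Pax7 was instead called lower at 3 d (-0.28, adjusted p = 0.0055). In whole muscle, fewer cells of a type and less RNA per cell cannot be told apart, for Pax7 or any gene below.

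Calcr, the calcitonin receptor of resting satellite cells (chromosome 6, 3685680 to 3764714, minus strand), was detected at low levels, with 2 to 27 fragments per sample. It was at 0.133, 0.308, 0.117 and 0.322 FPKM at 0 d and at 0.036, 0.0332, 0.0635 and 0.124 FPKM at 1 d. Sample 4 of 1 d, the highest there, lay just above the lowest 0 d sample. The fall at 1 d, 0.19 on the log2 scale (SE 0.06, limma adjusted p = 0.0162), rested on 16 fragments against 53, a ratio of 0.298 (95% interval 0.159 to 0.53, counting error only). Without sample 2 or sample 4 of 0 d it was not called (adjusted p = 0.0756 and 0.0798), nor in a fit of those 8 samples alone (adjusted p = 0.068).

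Calcr was not called at any later time point. Its mean FPKM was 0.109, 0.201, 0.225, 0.227, 0.321 and 0.258 at 3, 5, 7, 14, 21 and 28 d. The 3 d difference of -0.13 (limma adjusted p = 0.0819) was called under median-ratio scaling (-0.19, adjusted p = 0.0134) and without sample 1 or sample 3 of 0 d (adjusted p = 0.0403 and 0.0298).

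Heyl, a transcriptional repressor switched on by Notch signalling (chromosome 4, 123233556 to 123249875, plus strand), was lower from 3 d to 21 d. Its samples held 2.68, 3.03, 4.29 and 3.54 FPKM at 0 d, and 3.55, 3.17, 2.51 and 2.81 FPKM at 1 d. At 3 d they held 1.72, 2.56, 2.07 and 1.47 FPKM. All 3 d samples lay below the lowest of 0 d, and Heyl fell by 0.57 (SE 0.12, limma adjusted p = 0.000279), or by 0.53 (adjusted p = 0.00126) without sample 1.

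The lower level held at 5 d (1.80 to 2.16 FPKM) and 7 d (1.72 to 2.64 FPKM), with differences of -0.55 and -0.52 (limma adjusted p = 0.000387 and 0.000733). It was less firm later. At 14 d the difference was -0.31 (adjusted p = 0.0381) and at 21 d -0.32 (adjusted p = 0.0352), and each lost its call without sample 3 of 0 d, the highest of that group (adjusted p = 0.174 and 0.164), without sample 4 of 0 d (adjusted p = 0.084 and 0.0805), in TPM (adjusted p = 0.365 and 0.22) or with no filter (adjusted p = 0.0561 and 0.0523). The 14 d call was also lost without sample 1, 3 or 4 of 14 d (adjusted p = 0.0785, 0.0947 and 0.0726), and the 21 d call without sample 2 or 3 of 21 d (adjusted p = 0.0896 and 0.0736). At 28 d Heyl stood at 2.14 to 3.42 FPKM and was not called (-0.15, adjusted p = 0.323). Under median-ratio scaling it was called lower at all 7 time points, by 0.43 at 28 d (-0.43, adjusted p = 0.00298).

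Heyl is also made by pericytes and vascular smooth muscle, and the summed level of markers of those cells was lower than at 0 d in every later sample. The summed FPKM of 7 such markers was 232 to 259 at 0 d, 147 to 183 at 3 d, 190 to 210 at 5 d and 173 to 206 at 7 d, with none of the 7 at 0. The sum was also below 0 d where Heyl was not called, at 175 to 224 at 1 d and 189 to 202 at 28 d, and it was 188 to 196 at 14 d and 173 to 207 at 21 d. Of the 7, higher and lower calls numbered 1 and 1 at 1 d, 0 and 3 at 3 d, 1 and 2 at 5 d, 1 and 4 at 7 d, 1 and 3 at 14 d, 1 and 5 at 21 d, and 1 and 2 at 28 d. Their most abundant gene, the pericyte marker Rgs5, fell by 0.96 at 3 d (limma adjusted p = 3.71e-12). Without sample 1 of 3 d, 2 of the 7 were called lower there and 0 higher, and Rgs5 fell by 0.91 (adjusted p = 4.13e-11). The part of these cells in the fall of Heyl was not tested.

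Of 12 further genes of the Notch pathway, all tested, higher and lower calls numbered 6 and 1 at 1 d, 4 and 4 at 3 d, 4 and 2 at 5 d, 3 and 2 at 7 d, 5 and 1 at 14 d, 3 and 4 at 21 d, and 4 and 3 at 28 d. Without sample 1 of 3 d they numbered 5 and 3 at 3 d. The ligands did not move together. Dll1 was at 1.12 ± 0.29 FPKM (SD, n = 4) at 0 d and 6.10 ± 0.449 at 5 d, its highest mean (1.75 ± 0.14 SE, limma adjusted p = 1.65e-11). Dll4, a ligand of endothelium, stood at 3.17 ± 0.3 FPKM at 0 d and fell by 0.76 to 1.47 ± 0.0815 at 3 d (adjusted p = 2.06e-08), or by 0.77 without sample 1. Jag2 fell by 0.56 at 1 d (adjusted p = 2.62e-05), and the receptor Notch2 rose by 0.93 at 7 d (adjusted p = 1.37e-06). These 4 changes held under median-ratio scaling, which gave 3 higher and 5 lower calls of the 12 at 3 d and 2 higher and 6 lower at 5 d.

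Chodl, a transmembrane lectin (chromosome 16, 78930948 to 78951733, plus strand), dipped and then recovered. At 0 d the samples held 3.84, 3.07, 3.03 and 4.12 FPKM, and at 1 d 3.66, 3.50, 3.85 and 3.33 FPKM. At 3 d they held 2.28, 1.72, 1.92 and 2.35 FPKM, and at 5 d 1.95, 1.80, 1.83 and 1.81 FPKM. No sample of 3 d or 5 d reached the lowest of 0 d. The differences from 0 d were -0.55 ± 0.10 at 3 d and -0.66 ± 0.10 at 5 d (SE, limma adjusted p = 3.56e-05 and 3.01e-06), and -0.59 (adjusted p = 4.5e-05) at 3 d without sample 1.

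At 7 d the samples held 2.41, 2.80, 1.65 and 1.81 FPKM. At 14 d they held 2.63 to 3.39 FPKM, and the step of 0.38 from 7 d was called (limma adjusted p = 0.0379), although the groups overlapped. That call was lost without sample 3 or 4 of 7 d (adjusted p = 0.152 and 0.114) and without sample 1, 2 or 4 of 14 d (adjusted p = 0.121, 0.124 and 0.0619). It was also lost with no filter (adjusted p = 0.0521), under median-ratio scaling (0.37, adjusted p = 0.0623) and in a fit of those 8 samples alone (adjusted p = 0.279). Against 0 d, Chodl at 14 d was not called (-0.14, adjusted p = 0.257), but under median-ratio scaling it was still called lower (-0.44, adjusted p = 0.00129). At 28 d the 4 samples, from 4.13 to 4.97 FPKM, all lay above 0 d, and Chodl was called higher (0.28 ± 0.10 SE, adjusted p = 0.023). This last call was lost without sample 2 or 3 of 0 d or sample 4 of 28 d (adjusted p = 0.0838, 0.0872 and 0.0804), and under median-ratio scaling the difference was -0.0034 (adjusted p = 0.996). The dip at 3, 5 and 7 d was called under both scalings.

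**Figure D3:**
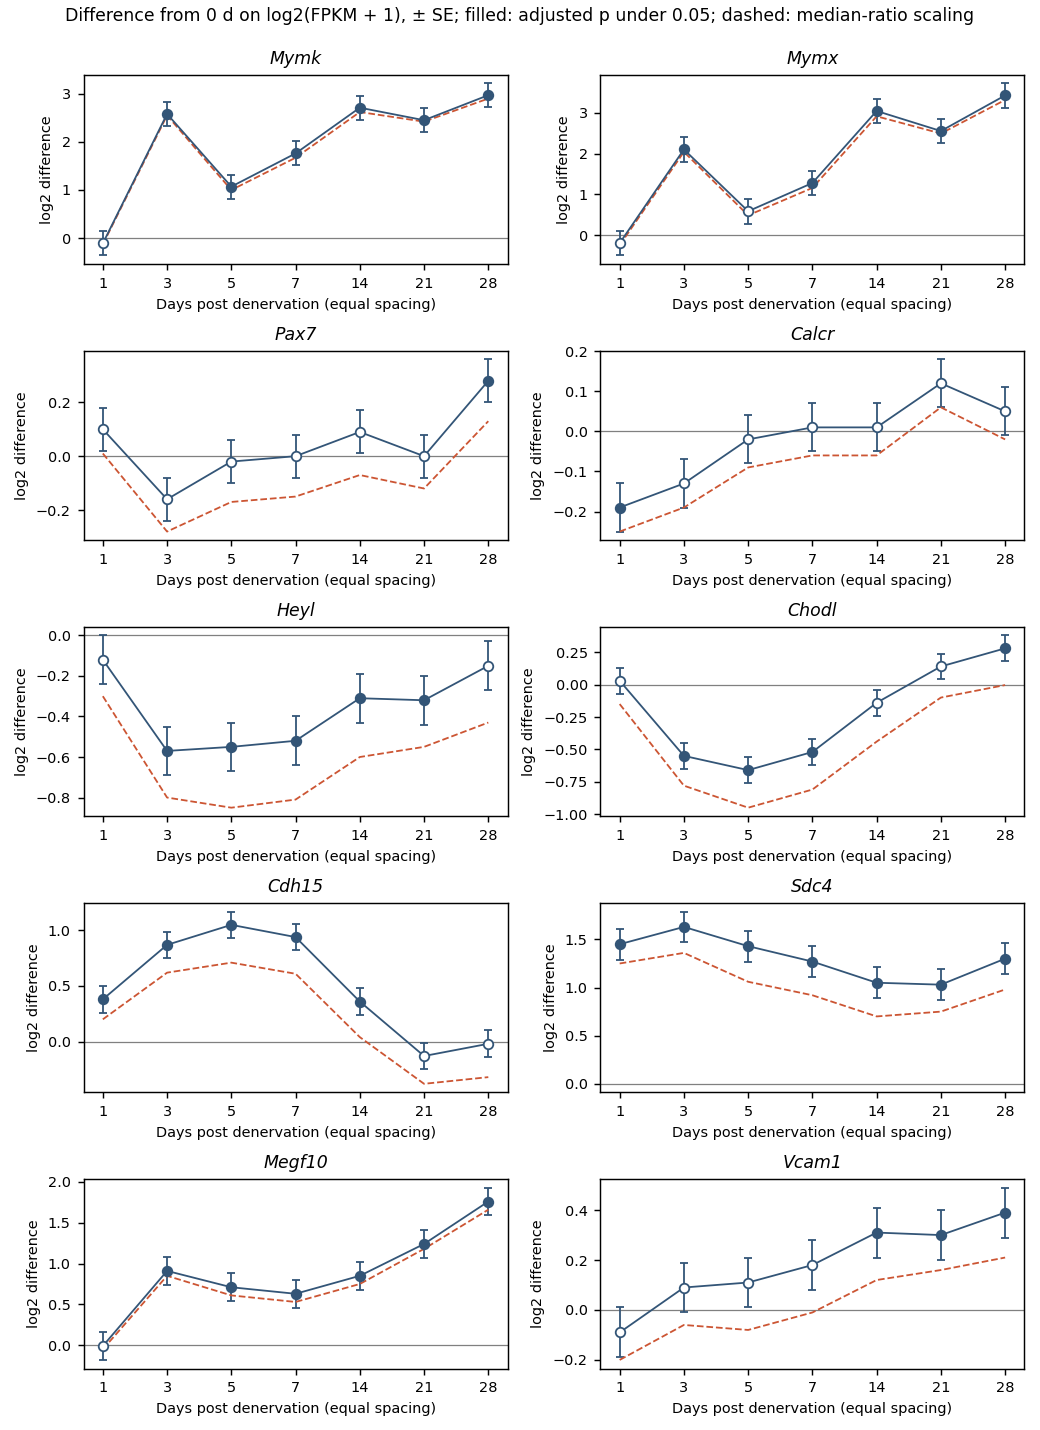
Difference of each time point from 0 d on log2(FPKM + 1) (y axes, ± SE of the limma fit) for the 10 genes at 1 to 28 d (x axes, equal spacing). Filled points have an adjusted p under 0.05 and the dashed line is the same difference after median-ratio scaling, which lies below the deposited one by the most for Heyl, Chodl, Cdh15 and Sdc4.

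Cdh15, M-cadherin, which joins satellite cells to their fibre (chromosome 8, 122847966 to 122867397, plus strand), rose and then returned to the level of 0 d. The samples held 5.01, 4.93, 5.62 and 5.10 FPKM at 0 d and 5.94, 6.56, 7.90 and 7.90 FPKM at 1 d. They reached 9.22, 12.1, 9.26 and 10.7 FPKM at 3 d and 10.9, 11.2, 13.0 and 12.1 FPKM at 5 d. No sample of 1, 3 or 5 d overlapped with 0 d. The largest difference was 1.05 ± 0.12 (SE, limma adjusted p = 2.97e-08) at 5 d, a 2.28-fold ratio of the means. At 3 d it was 0.87, and 0.92 (adjusted p = 1.21e-06) without sample 1.

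At 7 d the values spread from 8.10 to 14.3 FPKM, and at 14 d they were 5.90, 6.82, 7.91 and 7.22 FPKM. Cdh15 fell by 0.57 from 7 d to 14 d (limma adjusted p = 0.00619), with all samples of 14 d below those of 7 d, a call that was lost in a fit of those 8 samples alone (adjusted p = 0.164). It fell by a further 0.49 from 14 d to 21 d (adjusted p = 0.0308), a call that was lost without sample 2, 3 or 4 of 14 d (adjusted p = 0.0666, 0.13 and 0.0801) or sample 1, 2 or 3 of 21 d (adjusted p = 0.0646, 0.0702 and 0.117). At 21 d and 28 d the means were 4.65 ± 0.505 and 5.08 ± 0.539 FPKM (SD, n = 4) beside 5.16 ± 0.314 at 0 d, and neither was called.

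The smaller calls on Cdh15 depended on the scaling or on single samples. The rise at 1 d (0.38, limma adjusted p = 0.0164) was not called without sample 3 or 4 of 1 d (adjusted p = 0.062 and 0.0631) or under median-ratio scaling (0.20, adjusted p = 0.161). The difference at 14 d (0.36, adjusted p = 0.0144) was not called without sample 3 of 14 d (adjusted p = 0.0564) and was 0.04 under median-ratio scaling, which instead called Cdh15 lower at 21 d and 28 d (-0.38 and -0.32). The rises at 3, 5 and 7 d were called under both.

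Sdc4, a heparan sulphate proteoglycan of satellite cells and of many other cells (chromosome 2, 164424247 to 164443887, minus strand), was the most abundant of the 10 genes and, with Cdh15, was already called higher at 1 d. The samples held 10.2, 11.3, 10.8 and 9.77 FPKM at 0 d, and 27.0, 20.1, 36.0 and 43.7 FPKM at 1 d. At 3 d they held 26.6, 35.4, 39.7 and 37.8 FPKM. From 1 d to 28 d not 1 sample came down to the range of 0 d. The difference was 1.45 ± 0.16 at 1 d and 1.63 ± 0.16 at 3 d (SE, limma adjusted p = 2.52e-08 and 1e-09), ratios of the means of 3.02 and 3.32, and 1.75 at 3 d without sample 1 (adjusted p = 6.26e-10).

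Thereafter Sdc4 stayed at an intermediate level. Its mean FPKM was 30.0, 27.0, 22.8, 22.6 and 27.5 at 5, 7, 14, 21 and 28 d, and no step between neighbouring time points after 1 d was called. It was called higher at all 7 time points under each alternative tried, with differences of 0.70 at 14 d to 1.36 at 3 d under median-ratio scaling.

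Megf10, a receptor with EGF-like repeats that regulates satellite cell division and differentiation (chromosome 18, 57133090 to 57297467, plus strand), rose in the first days and most at the end. It was at 0.202, 0.174, 0.221 and 0.212 FPKM at 0 d, and 0.219, 0.227, 0.161 and 0.157 FPKM at 1 d. At 3 d it was at 0.795, 1.19, 1.54 and 1.60 FPKM, all above 0 d, with sample 1 again lowest. The difference was 0.91 ± 0.17 (SE, limma adjusted p = 5.67e-05), and 1.02 (adjusted p = 2.3e-05) without sample 1.

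In the middle of the course samples of the same time point differed widely. At 5 d they held 1.56, 0.405, 0.744 and 1.39 FPKM, and at 7 d 0.842, 0.742, 0.448 and 1.56 FPKM. At 21 d they held 1.59, 1.93, 1.79 and 2.07 FPKM, and at 28 d 3.38, 3.51, 2.51 and 2.91 FPKM. Every 28 d sample lay above every 21 d sample, although that step of 0.51 was not called (limma adjusted p = 0.259). Against 0 d the difference at 28 d was 1.76 ± 0.17 (SE, adjusted p = 1.09e-09), or 15.2-fold in fragments (95% interval 12.4 to 18.9, counting error only), and the calls from 3 d to 28 d held under both scalings.

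Vcam1, an adhesion molecule of satellite cells and of activated endothelium (chromosome 3, 116109949 to 116129688, minus strand), was called higher from 14 d on. It shares 61 exon bases with the antisense gene Gm43109, and whether counting used the strand is not given in the sources used here. At 0 d the samples held 0.841, 0.786, 0.864 and 1.01 FPKM, and at 28 d 1.52, 1.74, 1.25 and 1.30 FPKM, without overlap. The differences at 14, 21 and 28 d were 0.31, 0.30 and 0.39 (SE 0.10 each, limma adjusted p = 0.00817, 0.0118 and 0.00135). Under median-ratio scaling they were 0.12, 0.16 and 0.21, and none was called (adjusted p = 0.301, 0.167 and 0.0596). At 7 d Vcam1 was called only in TPM and without sample 2 of 7 d (adjusted p = 0.0206 and 0.0493).

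At 3 d Vcam1 split the samples, with 0.67 and 0.782 FPKM in samples 1 and 4 and 1.34 and 1.28 FPKM in samples 2 and 3. The same samples parted in the summed FPKM of 6 macrophage and other leukocyte markers, which was 247 and 400 in samples 1 and 4 and 817 and 754 in samples 2 and 3, none of the 6 being at 0. The split was not particular to leukocytes. Endothelial markers summed to 50.2 and 56.6 in samples 1 and 4 and 70.5 and 72.5 in samples 2 and 3. Fibro-adipogenic progenitor markers summed to 295 and 416 against 526 and 534. The muscle fibre sum went the other way, at 21580 and 22204 against 19300 and 21470. Vcam1 was not called from 1 d to 3 d (0.18, limma adjusted p = 0.16), but was without sample 1 (0.27, adjusted p = 0.0275). At 0 d the leukocyte sum was 111 to 161, and 5 or 6 of the 6 markers were called higher at each time point from 3 d. The 6 endothelial markers summed to 85.2 to 96.7 FPKM at 0 d and 60.1 to 72 at 28 d, with 0 higher and 4 lower at 28 d. The part of these cells in the level of Vcam1 was not tested.

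**Figure D4:**
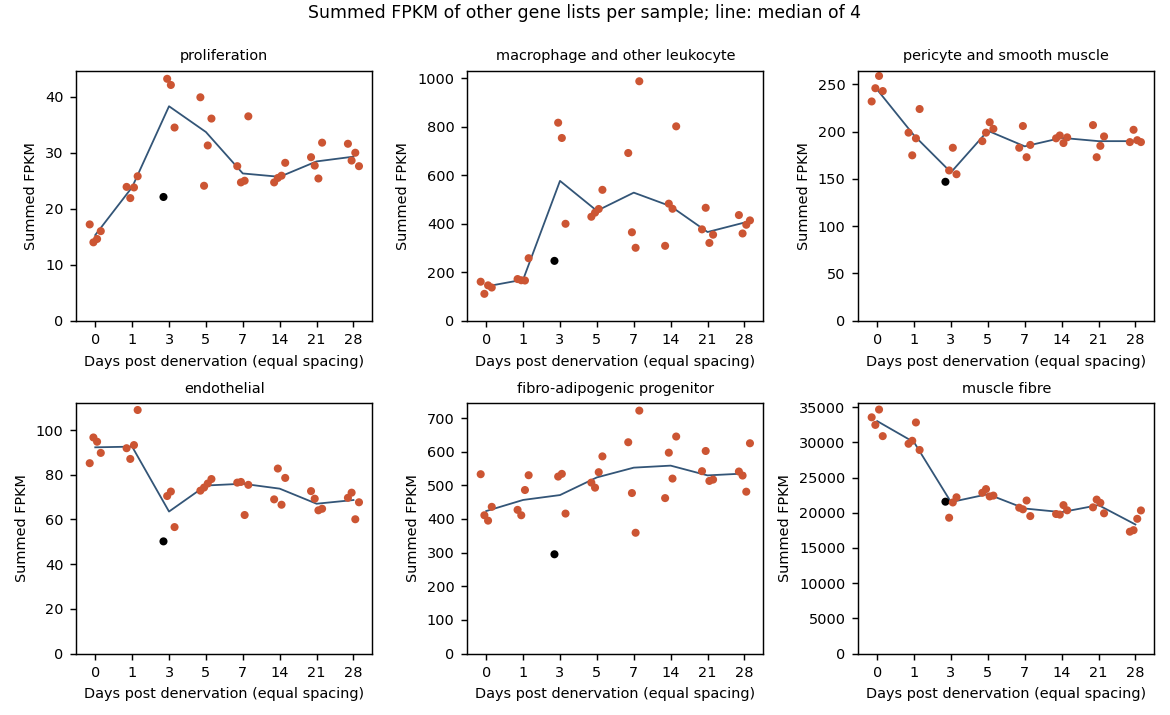
Summed FPKM of 6 gene lists (y axes, each from 0) in each sample (points) at 0 to 28 d (x axes, equal spacing), with the median of 4 samples as a line. Sample 1 of 3 d, in black, has 247 for the leukocyte list and 22.1 for the proliferation list, the lowest of its time point for both.

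The second question was at which step of the course the 10 genes changed. Of 60 tests between neighbouring time points from 1 d on, 14 were called. From 1 d to 3 d, 7 of the 10 genes changed (Mymk, Mymx, Megf10 and Cdh15 higher, Pax7, Heyl and Chodl lower), where 30.9% of all genes were called. From 3 d to 5 d, 2 were called, the falls of Mymk and Mymx, with 23.8% of all genes. The counts for both steps were 7 and 2 without sample 1 of 3 d as well, with Vcam1 in place of Pax7 in the first.

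From 5 d to 7 d limma called 0 of the 10 genes (1.96% of all genes), although Mymk and Mymx passed at 0.05 before adjustment, and voom on recovered fragments also called 0. From 7 d to 14 d 4 were called (Mymk, Mymx and Chodl higher, Cdh15 lower), with 2.54% of all genes, and all 4 calls were lost in a fit of the 8 samples of these time points alone, which called 0.852% of all genes, as given with each gene. From 14 d to 21 d 1 was called, Cdh15, with 1.61% of all genes. From 21 d to 28 d limma called 0, with 0.476% of all genes, while 4 genes (Pax7, Megf10, Mymk and Mymx) passed at 0.05 before adjustment, and voom called 0.

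Genes of the same cells that the 10 do not include gave a mixed picture. Of 11 other satellite cell genes, 10 were tested, with higher and lower calls of 0 and 0 at 1 d, 2 and 1 at 3 d, 4 and 0 at each of 5, 7, 14 and 21 d, and 6 and 0 at 28 d. Without sample 1 of 3 d they were 3 and 1 at 3 d. At 1 d, 1 gene was higher by limma before adjustment, and voom also called 0. Over all genes, 36.1%, 37.1%, 38.0%, 31.7% and 37.8% were called higher at 5, 7, 14, 21 and 28 d. Met, the receptor for hepatocyte growth factor, rose from 3.03 ± 0.272 FPKM (SD, n = 4) at 0 d to 13.3 ± 0.408 at 5 d (limma adjusted p = 1.67e-16). Myf5, a myogenic factor of satellite cells and myoblasts, rose from 1.22 ± 0.087 to 3.86 ± 0.34 FPKM at 14 d (adjusted p = 6.89e-10). Cd34, which endothelial and stromal cells also carry, fell by 0.52 at 3 d (adjusted p = 0.00574), or by 0.30 without sample 1 (adjusted p = 0.0446). These changes of Met, Myf5 and Cd34 held under median-ratio scaling, which gave 3 higher and 3 lower calls of the 10 at both 5 d and 7 d.

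Proliferation genes were called higher for the most part from 3 d to 7 d. Of 8 such genes, the number called higher was 1, 7, 7, 6, 1, 2 and 2 at 1, 3, 5, 7, 14, 21 and 28 d. Limma called 0 lower, also before adjustment, and voom called 0 lower. Mki67, a marker of dividing cells, was at 0.293 ± 0.0541 FPKM (SD, n = 4) at 0 d, 2.68 ± 1.56 at 3 d and 2.80 ± 0.84 at 5 d (limma adjusted p = 2.68e-05 and 6.32e-06). Top2a, a topoisomerase of dividing cells, rose by 1.32 at 3 d and 1.36 at 5 d (adjusted p = 2.34e-05 and 1.46e-05). Without sample 1 of 3 d, the lowest of its group for the summed list, the number called higher at 3 d was again 7, and the 3 d differences were 1.74 for Mki67 and 1.63 for Top2a (adjusted p = 1.38e-08 and 6.3e-08). Which cells divided cannot be read from whole muscle, and the leukocyte markers given above were higher at the same time points.

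Of the remaining markers, those of muscle fibres were lower for 5 of 6 genes at 3 d and 4 of 6 at each later time point, with 1 of 6 higher at 21 d and at 28 d. Those of fibro-adipogenic progenitors were higher for 1 or 2 of 5 genes at each time point with 0 lower. Dcn, their most abundant gene, was not called at any time point. Of 5 Schwann cell markers, 0 to 2 were called higher and 1 or 2 lower at each time point. Without sample 1 of 3 d, 5 of 6 fibre genes were lower and 2 of 5 progenitor genes higher at 3 d, and 1 Schwann cell marker was called in each direction. Their part in the levels of the 10 genes was not tested.

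The order of levels was compared by whether samples of neighbouring groups overlapped. For Pax7, 28 d was highest and separate from 1 d, the next, and the other 7 time points each overlapped with their neighbour. Its lowest 28 d sample (0.846 FPKM) nevertheless lay below the highest of 14 d (0.875 FPKM). For Sdc4, 0 d was separate at the bottom and the other time points each overlapped with their neighbour. For Mymk, the time points 28, 14, 3 and 21 d overlapped in that order at the top. Below them, 7 d was separate from 21 d, 5 d from 7 d and 0 d from 5 d. However, 7 d (2.17 to 3.33 FPKM) overlapped with 3 d, whose lowest sample held 1.99 FPKM. For Calcr, Heyl, Chodl and Vcam1, neighbouring time points in the order overlapped throughout.

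The genes whose pattern was most like each of the 10 were sought among the 11943 genes whose mean FPKM reached 1, by Pearson's r of log2(FPKM + 1) over the 32 samples. These coefficients are descriptions, given without a test, and the samples share their time points, libraries and scaling. Megf10 was most like Nes, nestin, an intermediate filament protein of immature muscle and of the neuromuscular junction (r = 0.906), followed by the adhesion molecule Nrcam (0.893) and Aif1l (0.886). Mymx was most like Gdf6 (r = 0.927), then Aif1l (0.912) and Hes6 (0.907), and Mymk was most like Iffo1 (0.943), the pseudogene Rpl9-ps6 (0.937), whose reads may come from its parent gene, and Srpk2 (0.929).

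Among the others, Cdh15 was most like the tubulin Tubb4b (r = 0.952), Gga1 (0.949) and the heat shock factor Hsf1 (0.944). Sdc4 was most like Nfe2l2, a factor of the response to oxidative stress (r = 0.942), Ythdf2 (0.931) and Birc6 (0.930). The nearest genes were less close for the rest. They were Vcam1 with Enpp1 (r = 0.880), Heyl with Rflnb (0.816), Chodl with Cacna2d1, a calcium channel subunit (0.815), Pax7 with Stox2 (0.796) and Calcr with Jkamp (0.770).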

How the data were processed

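RNA from 32 GAS muscle samples was sequenced, and the authors deposited FPKM values, 1 per gene and sample, for 33397 genes. The submitters' processing notes name CASAVA, HISAT2 2.1.0, DESeq2 and GRCm38. The counter and annotation are not given in the sources used here. Groups came from the labelled time, and 0 columns were left unused. Dividing out GENCODE M21 merged exon lengths (33356 genes matched, 41 not) gave whole fragments (within 0.05) for 99.3% to 99.4% of values under 200 fragments. Fragments of every pair of samples within a time point differed beyond sampling noise (48 pairs, chi-square per degree of freedom 3.76 to 60.4).

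Values were tested on log2(FPKM + 1) with limma 3.58.1 (R 4.3.3) in 1 fit of 32 samples with a variance trend, for 22071 genes that reached 0.1 FPKM in 4 samples or more. Calls used a Benjamini-Hochberg adjusted p under 0.05 with no fold threshold, since several of the 10 genes are low. On simulated data of that size, 191 of 200 genes changed 2-fold were recovered (95.5%) and 4 unchanged genes were called. The 2-fold change was a shift of 1 on log2(FPKM + 1), in genes whose 0 d mean on that scale was above 1. Pax7, Calcr, Megf10, Mymk, Mymx and Vcam1 lay below that mean, so the share recovered does not cover them. Exact permutation tests were two-sided. Intervals and limits from fragments (95%) cover counting error only. The alternatives covered the pseudocount, the filter, median-ratio scaling (9455 genes), TPM, the variance trend, fits of 8 samples, a 1.5-fold threshold, leaving out each sample and, added after seeing the data, voom on recovered fragments. Other steps ran in Python 3.11.15 (pandas 2.3.3, numpy 2.4.6, scipy 1.17.1, matplotlib 3.10.9).

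The 10 genes and the lists were chosen with earlier results of these data known. Beyond the 10 genes, the text names from each pathway list up to 4 genes, the 2 highest and 2 lowest called changes, with Myod1 and Myog, from each cell type list the most abundant gene, and for each of the 10 genes the most alike genes by r. A marker gene that the rule would name is not reported here.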

Additional observations from a re-analysis of the deposited data

Results flagged for a closer look

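Of 79 groups of 4 samples checked for a lone extreme value, 1 held it, and chance flags about 1 in 20 groups (4.0 of 79). This was Cdh15 at 28 d, where sample 3 had 4.28 FPKM and the others 5.26 to 5.44 FPKM.

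Effects against 0 d differed between neighbouring time points in 14 of 60 tests (limma, adjusted p under 0.05). From 1 d to 3 d the log2 difference was 2.69 for Mymk, 2.29 for Mymx, 0.92 for Megf10 and 0.49 for Cdh15, and it was -0.45 for Heyl, -0.58 for Chodl and -0.26 for Pax7. From 3 d to 5 d it was -1.50 for Mymk and -1.51 for Mymx. From 7 d to 14 d it was 1.76 for Mymx, 0.95 for Mymk, 0.38 for Chodl and -0.57 for Cdh15. From 14 d to 21 d it was -0.49 for Cdh15. The calls on Pax7, Chodl from 7 d, Mymk from 7 d and Cdh15 from 14 d each rested on single samples, as given with those genes, and the 4 calls from 7 d to 14 d were lost in fits of 8 samples.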

How the results depend on the processing

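Leaving out each sample in turn kept 1001 of 1040 results on their side of the threshold, with 35 calls lost and 4 gained. Median-ratio scaling kept 115 of 130, with 7 lost, 7 gained and 1 called difference both lost and turned in sign, Chodl at 28 d (-0.0034, adjusted p = 0.996, from 0.28). Turns of sign among differences called under neither scaling are not counted. The variance trend changed 0 of 130 and a filter at an FPKM of 1 changed 0 of the 104 it could test. The pseudocount kept 128, TPM 125, no filter 126, voom 129 (of 130 each) and fits of 8 samples 120 of 128. With a 1.5-fold threshold the counts of the 10 genes called were 1 at 1 d (from 3), 5 at 3 d (from 7), 5 at 5 d (from 6), 5 at 7 d (from 7), 4 at 14 d (from 7), 4 at 21 d (from 6) and 4 at 28 d (from 7), where 6.34% to 15.4% of all genes were called higher and 2.49% to 6.03% lower. Between time points they were 3 from 1 d to 3 d (from 7), 2 from 7 d to 14 d (from 4) and 0 from 14 d to 21 d (from 1), with 10.6%, 0.634% and 0.453% of all genes. Fits of 8 samples gave 1 from 5 d to 7 d (from 0) and 0 from 7 d to 14 d, with 1.22% and 0.852% of all genes, and no filter gave 2 from 7 d to 14 d. The cause was not tested. Leaving out 1 sample gave 2 to 4 calls from 7 d to 14 d and 0 to 1 from 14 d to 21 d. Genes with few fragments, such as Calcr, and Mymk and Mymx at 0 d and 1 d, are limited by depth. No paired analysis was possible because the columns carry letters or control numbers that are not tied to the replicate numbers of the labels.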

Other observations

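The ratio of Mymx to Mymk, both in FPKM within a sample, was below 1 in most early samples and above 1 in most late ones. Its median was 0.8 at 3 d (0.56 to 1.18), 0.68 at 5 d (0.45 to 1.02) and 0.72 at 7 d (0.56 to 1.1), above 1 in 1 of 4 samples each time. It was 1.68 at 14 d (0.84 to 2.08) and 1.31 at 21 d (0.86 to 1.76), above 1 in 3 of 4 samples, and 1.6 at 28 d (1.51 to 1.85), above 1 in 4 of 4. The ratio was looked at after its values were seen and was not tested.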
